A study of Mus musculus with 37 samples.

Results

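Chemokines are small secreted proteins that guide white blood cells, and their receptors sit on the cells that follow them. In the count table of this mouse series, 60 of 24421 gene symbols carry the name of a chemokine ligand or a chemokine receptor. They were chosen by name alone (Ccl, Cxcl, Ccr or Cxcr followed by a digit, and Xcl1, Xcr1, Cx3cl1, Cx3cr1, Ppbp and Pf4), and they comprise 41 ligands and 19 receptors. The samples were bulk RNA libraries from female wild type BALB/c mice, either given N-butyl-N-(4-hydroxybutyl) nitrosamine (BBN, a carcinogen of the urinary tract) for 18 weeks or kept on tap water alone. The ureter with cancer (UT) gave 11 libraries from 10 BBN-treated mice, with both sides taken in mouse 5, and the other, noncancerous ureter (UN) gave 7 libraries, each from a mouse that also had a UT library. Untreated ureters (U) gave 6 libraries, both sides of 3 mice, and the same 3 mice gave the 3 untreated bladders. The BBN bladders came from the 10 BBN-treated mice, so libraries of different tissues share animals, and libraries taken from a single mouse are not independent samples. UN is ureter that was exposed to BBN for as long as the cancer was, so it is no unexposed control.

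CXC and CC chemokines are named after the spacing of their first cysteines. CXC ligands such as Cxcl1 and Cxcl5 draw neutrophils through Cxcr2, whereas Cxcl9, Cxcl10 and Cxcl11 are induced by interferon and draw activated T cells through Cxcr3. Many CC ligands draw monocytes, macrophages, eosinophils and T cells to inflamed tissue, and others, such as Ccl19, Ccl21 and the CXC ligand Cxcl13, place lymphocytes and dendritic cells within lymphoid tissue. Atypical receptors bind the same ligands and clear them without guiding cells.

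Totals of the estimated counts per library ranged from 3557697 to 18793560, and the shallowest ureter library was UN 6, with 4675081. Values below are CPM (a gene's counts scaled to a common library total). The 60 genes summed to 544 to 926 CPM in U, 804 to 10168 CPM in UN, 1140 to 4610 CPM in UT, 498 to 634 CPM in untreated bladder and 729 to 3078 CPM in BBN bladder. Some libraries stood apart. UN 2 had summed urothelial markers of 34.8 CPM, the lowest of the 37 libraries, and summed macrophage markers of 8830 CPM, the highest; it was the highest UN library for 14 of the 59 chemokine genes counted there and the lowest for 12. UT 2 was the highest UT library for 15 of 59 and the lowest for 15 others, with the highest summed neutrophil markers of UT, 2267 CPM, and the lowest summed B and plasma cell markers, 36.9 CPM. In UN 6 the 10 most abundant genes took 35.5% of the counts, the highest share of the 37 libraries, and it was the lowest UN library for 18 of 59 genes and the highest for 11. UT 4 held 2185 CPM of kidney tubule markers, against a UT median of 4.04 CPM. Summed adipocyte markers ran from 16484 to 24133 CPM in U, from 3557 to 21314 CPM in UN and from 33.1 to 13420 CPM in UT, and stood at 395 to 1126 CPM in untreated bladder, and all 5 of them fell in UT against U. In the same comparison 5 of 7 smooth muscle markers fell (median log2 fold change -1.62) and 4 of 4 kidney tubule markers tested rose (7.65). The part of these other tissues in the chemokine values was not tested.

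**Figure D1:**
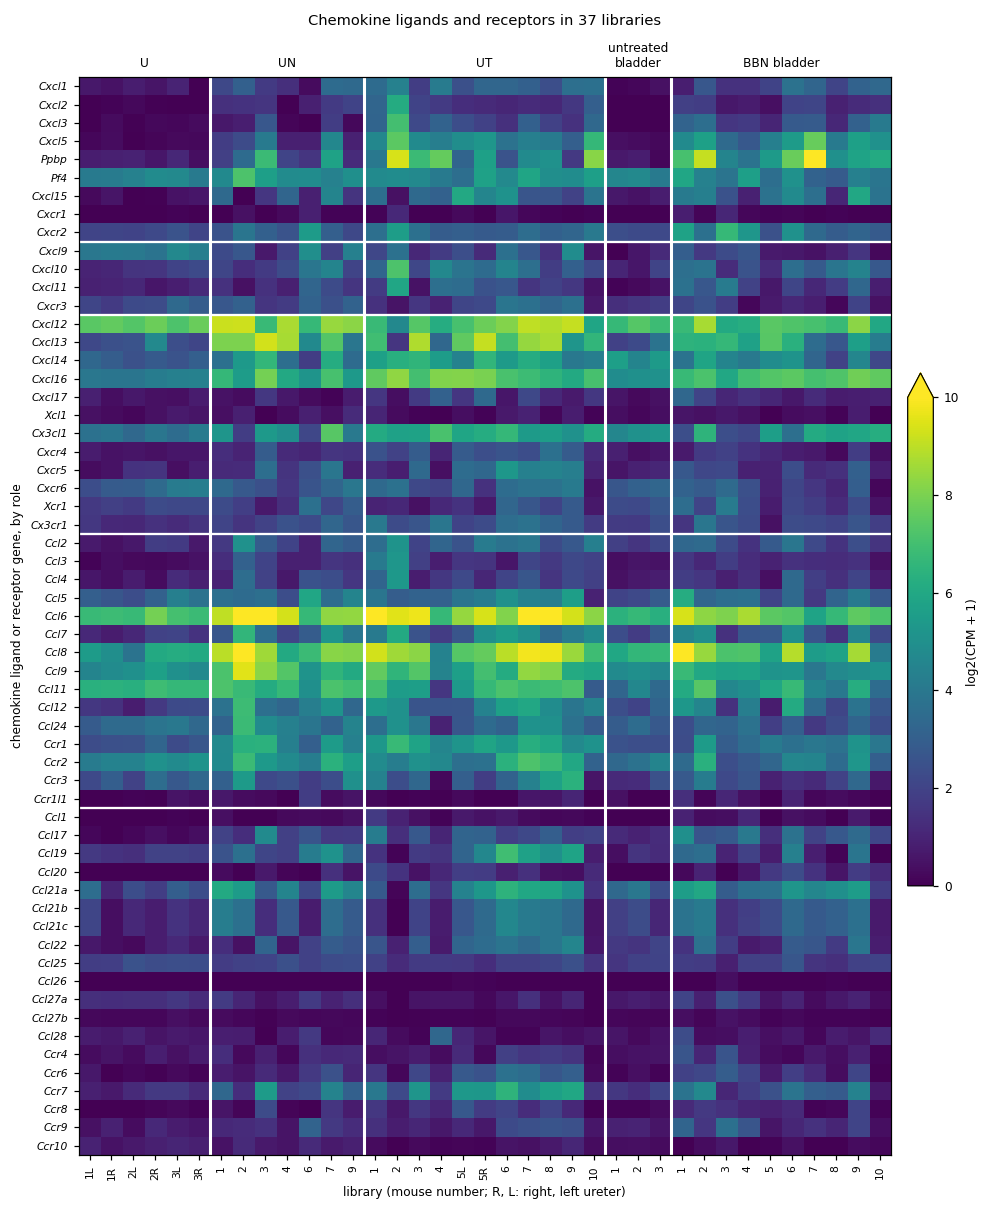
Level of 59 of the chemokine ligand and receptor genes (vertical, by role) in each of the 37 libraries (horizontal, by group, named by mouse and side), coloured by log2(CPM + 1) with the scale ending at 10. Ccl6 and Ccl8 are bright in most UN and UT libraries, the uppermost ligands, Cxcl1 to Cxcl5, are dark in U and untreated bladder, and single libraries such as UN 2 and UT 2 stand out within their groups.

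Most chemokine genes were higher in BBN-treated ureter than in untreated ureter, with or without cancer. In UN against U, 34 of the 55 chemokine genes tested rose and 0 fell (edgeR quasi-likelihood test, FDR below 0.1 with the fold at 2 or more), which is 61.8% of those tested, set against 12.5% of all 15658 genes tested that rose and 1.21% that fell. DESeq2 gave 36 and 0, and 37 had an unadjusted p under 0.05, none of them lower in UN. In UT against U, 38 rose and 3 fell (69.1% and 5.45%), against 18.7% and 12.3% of all genes. The median log2 fold change of the chemokine genes was 2.36 for UN and 2.23 for UT, while that of all genes tested was 0.13 and 0.11. Both comparisons use the same 6 U libraries, so they are not independent of each other. Ligands that rose were 25 of 38 in UN and 28 of 38 in UT, and receptors 9 of 17 and 10 of 17. The 5 genes not tested in the ureters (Cxcr1, Ccr1l1, Ccl1, Ccl26 and Ccl27b) were left out by the filter on low counts. When the libraries of a mouse and group were summed, leaving 3 U samples, 4 chemokine genes rose in UN against U (Ccl20, Cxcl16, Ccl17 and Ccr1), and 27 rose and 1 fell in UT against U. With the mouse as a random effect in limma-voom, 10 rose and 1, Cxcl9, fell in UN against U. Over all 16322 genes of the summed fit, 147 rose and 10 fell in UN, and 2243 rose and 1343 fell in UT. Over all 15658 genes of the random effect fit, 751 rose and 550 fell in UN against U. In bulk tissue, more cells of a type and more RNA per cell cannot be told apart.

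**Figure D2:**
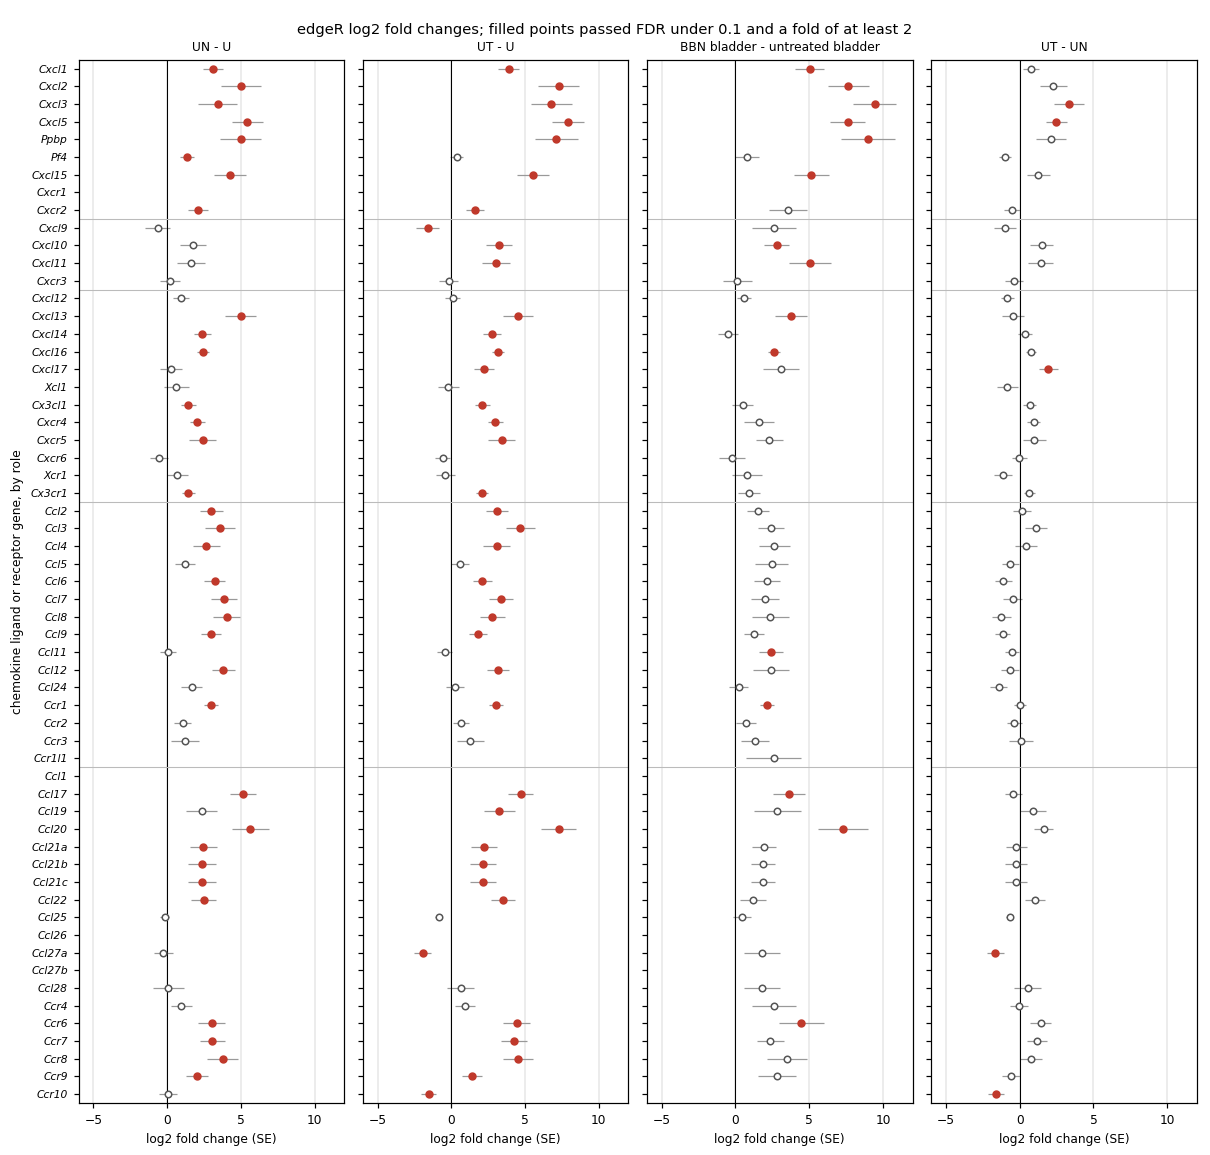
Log2 fold change with its standard error (horizontal) of 59 chemokine genes (vertical, by role) in 4 comparisons, from left to right UN against U, UT against U, BBN bladder against untreated bladder and UT against UN; filled points passed FDR under 0.1 and a fold of at least 2, and genes without a point were not tested. Filled points number 34, 40, 15 and 5, and only UT against U and UT against UN have filled points left of 0.

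Levels of different genes can be set side by side only per length, and per kilobase of exon Ccl8, a CC ligand made by macrophages, had the highest median in all 5 groups. Its median was 107 CPM per kb in U, 580 in UN, 710 in UT, 188 in untreated bladder and 289 in BBN bladder. Ccl6, made by macrophages and neutrophils, came next in every group but U, where Ccl11, the eosinophil attractant eotaxin, came second. Cxcl13, which draws B cells, ranked next after these in UN, UT and BBN bladder. Among receptors, Cxcr6 had the highest median per kb in U and in untreated bladder, Ccr1 in UN and BBN bladder, and Ccr7 in UT.

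The class of the neutrophil receptors and the CXC ligands of their gene row, which include Pf4, no ligand of these receptors, had the largest median change of the 5 role classes in UN, UT and bladder. The ligands lie in a row on chromosome 5 (GRCm38, GENCODE vM21), on the plus strand, from Cxcl5 at 90759360 to 90761624 through Ppbp, Pf4, Cxcl3, Cxcl15 and Cxcl1 to Cxcl2 at 90903871 to 90905938. Gaps between neighbours were 2371 to 12719 bases, apart from 88173 bases between Cxcl15 and Cxcl1. Promoters of 6 of them are shown: those of Cxcl1, Cxcl2, Cxcl3, Cxcl15 and Ppbp, because these genes, like Cxcl5, rose in all 3 comparisons of BBN-treated with untreated tissue, and that of their neighbour Pf4, which was called in UN and stood at 0.37 ± 0.43 in UT and 0.79 ± 0.81 in bladder. Each line holds the 120 bases before the RefSeq gene start (GRCm38.p6, plus strand), and capitals mark matches on either strand to the κB consensus bound by NF-κB, overlapping matches merged.
Cxcl3 (chr5:90785981-90786100): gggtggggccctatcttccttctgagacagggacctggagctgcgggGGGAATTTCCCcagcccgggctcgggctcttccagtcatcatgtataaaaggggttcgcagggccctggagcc
Cxcl1 (chr5:90891125-90891244): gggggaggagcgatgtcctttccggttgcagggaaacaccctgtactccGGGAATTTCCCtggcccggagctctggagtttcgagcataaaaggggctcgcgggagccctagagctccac
Cxcl2 (chr5:90903779-90903898): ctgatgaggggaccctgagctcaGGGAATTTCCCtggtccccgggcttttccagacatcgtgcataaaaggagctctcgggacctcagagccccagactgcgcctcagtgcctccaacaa
Ppbp (chr5:90768398-90768517): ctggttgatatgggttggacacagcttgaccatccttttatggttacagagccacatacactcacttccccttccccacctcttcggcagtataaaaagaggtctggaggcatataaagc
Cxcl15 (chr5:90794414-90794533): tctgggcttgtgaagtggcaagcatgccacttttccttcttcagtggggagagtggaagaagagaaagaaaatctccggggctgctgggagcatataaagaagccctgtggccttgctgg
Pf4 (chr5:90772315-90772434): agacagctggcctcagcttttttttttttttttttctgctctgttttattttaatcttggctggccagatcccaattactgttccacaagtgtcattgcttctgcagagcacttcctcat
The same 11 letters stood at -73 to -63 in Cxcl3, at -71 to -61 in Cxcl1 and at -97 to -87 in Cxcl2, counted back from -1 as the base before the start. No match fell in the windows of Ppbp, Cxcl15 and Pf4. Over 250 bases before to 50 after the start, a match was present in 11 of the 51 windows of chemokine genes (21.6%), which belong to 44 genes, and in 8.46% of all 32851 windows. Those with a match were Cxcl1, Cxcl2, Cxcl3, Cxcl10, Ccl9, Ccl20, Ccr1 and Ccr6, with Ccl27a, which fell in UT, and Ccl1 and Ccr3, called in no comparison. A match is a run of letters, not a measured binding site.

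Cxcl5, an epithelial neutrophil attractant, ranged from 0 to 0.266 CPM in U (median 0.141), from 0.817 to 24.01 CPM in UN (median 2.57) and from 7.26 to 179.8 CPM in UT (median 23.8). It was 0.336, 0.25 and 0.168 CPM in the untreated bladders and 5.71 to 205 CPM in the BBN bladders (median 29.3). No BBN-treated library of either tissue overlapped the untreated ones. The log2 fold change was 5.42 ± 1.04 (SE, adjusted p = 0.00228) in UN, 7.91 ± 1.10 (adjusted p = 2.68e-05) in UT and 7.61 ± 1.19 (adjusted p = 0.000842) in bladder. Without its highest library, UT 2 or BBN bladder 7, the value was 7.32 in UT and 7.01 in bladder.

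Ppbp, the precursor of platelet-derived neutrophil attractants, ranged from 0.308 to 1.17 CPM in U (median 0.8), from 1.35 to 111 CPM in UN (median 3.1) and from 2.13 to 664 CPM in UT (median 32.2). In the bladders it was 0.627, 0.733 and 0.12 CPM untreated and 12.9 to 1098 CPM after BBN (median 61.3). Here too every BBN-treated library lay above every untreated one of its tissue, and the levels spread over more than 2 orders of magnitude within UT. Log2 fold changes were 4.97 ± 1.36 in UN (adjusted p = 0.0189), 7.12 ± 1.46 in UT (adjusted p = 0.000617) and 8.99 ± 1.82 in bladder (adjusted p = 0.00544). They were smaller, and still called, without the highest library of each treated group, at 3.77 in UN without UN 3, 6.29 in UT without UT 2 and 8.25 in bladder without BBN bladder 7. Summed levels of 6 platelet markers were 3.25 to 5.11 CPM in U (median 3.93), 4.72 to 14.1 CPM in UN (median 6.86) and 2.45 to 11.5 CPM in UT (median 7.24), and overlapped between the untreated (5.27 to 7.99 CPM) and BBN bladders (3.21 to 8.95 CPM). Only 2 of the 6 had enough counts to be tested, of which 1 rose in UN against U and 1 fell in UT against UN. Their part in the Ppbp values was not tested.

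Cxcl3, a neutrophil attractant that acts through Cxcr2, ranged from 0 to 0.231 CPM in U (median 0.145), from 0 to 5.64 CPM in UN (median 0.562) and from 1.63 to 128 CPM in UT (median 4.16). It was listed at 0 in all 3 untreated bladders and at 1.02 to 16.5 CPM in the BBN bladders (median 6.24), at least 102-fold higher when set against a floor of 3 counts over the untreated group. UN overlapped U, with 4 of 7 libraries above the highest U library, while all 11 UT libraries lay above it. The log2 fold change was 3.42 ± 1.31 in UN (adjusted p = 0.0846), lost without UN 3 (2.37, adjusted p = 0.275), and 6.78 ± 1.38 in UT (adjusted p = 0.00058), where it was 5.02 without UT 2. The UN call held in 16 of 24 fits that left out a library each.

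Cxcl2, a further Cxcr2 ligand, ranged from 0 to 0.155 CPM in U (median 0.0266), from 0 to 2.99 CPM in UN (median 1.78) and from 1.11 to 70.4 CPM in UT (median 2.06), where UT 2 was highest. It was listed at 0 in the untreated bladders and at 0.315 to 3.28 CPM in the BBN bladders (median 1.49), at least 26.9-fold higher against the same floor. Of the UN libraries 6 of 7, and all 11 UT libraries, lay above the highest U library. The log2 fold change was 5.01 ± 1.37 in UN (adjusted p = 0.0187) and 7.29 ± 1.39 in UT (adjusted p = 0.000346). Without UT 2 the UT value was 5.64, and without U 2L the values were 5.60 in UN and 7.88 in UT, all of them still called.

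Cxcl1 and Cxcl15, the latter known from lung and mucosa, rose in UN (log2 fold change 3.12 and 4.26), in UT (3.88 and 5.53) and in the BBN bladders (5.04 and 5.15). Without UN 7 the UN value of Cxcl15 was 3.63, and without untreated bladder 3 the bladder value of Cxcl1 was 5.87. The receptor Cxcr2 rose in UN (2.1) and UT (1.58) and was not called in bladder (3.55 ± 1.28, adjusted p = 0.101), although all 10 BBN bladders lay above the untreated ones. The highest were BBN bladders 3, 1 and 4 (102, 53.5 and 37.3 CPM), whose RNA was degraded (RNA integrity number under 5). The Cxcr2 call in UN was lost without UN 6 (0.88, adjusted p = 0.239). Pf4, a platelet granule chemokine also made by some macrophages, rose in UN (1.36 ± 0.48, adjusted p = 0.0602), a call lost without UN 2 (0.55, adjusted p = 0.285) or any 1 of U 1R, U 1L, U 2L and U 3R. In all, 8 of the 8 genes of this class tested rose in UN, 7 in UT and 6 in bladder, beside 12.5%, 18.7% and 7.61% of all genes. The median log2 fold changes of the class were 3.84, 6.15 and 6.38. With Cxcl2 and Cxcl3 at their bounds the bladder median was 5.09.

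Most neutrophil markers tested also rose in BBN-treated against untreated tissue. The 11 markers in the table summed to 16.1 to 28.5 CPM in U, 24.01 to 565 CPM in UN, 160.0 to 2267 CPM in UT, 6.76 to 9.25 CPM in untreated bladder (with 1 marker at 0 in all 3) and 136 to 2241 CPM in BBN bladder. Of those tested, 8 of 10 rose in UN, 7 of 10 rose and 1 fell in UT, and 6 of 9 rose in the BBN bladders. Their part in the chemokine result was not tested.

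**Figure D3:**
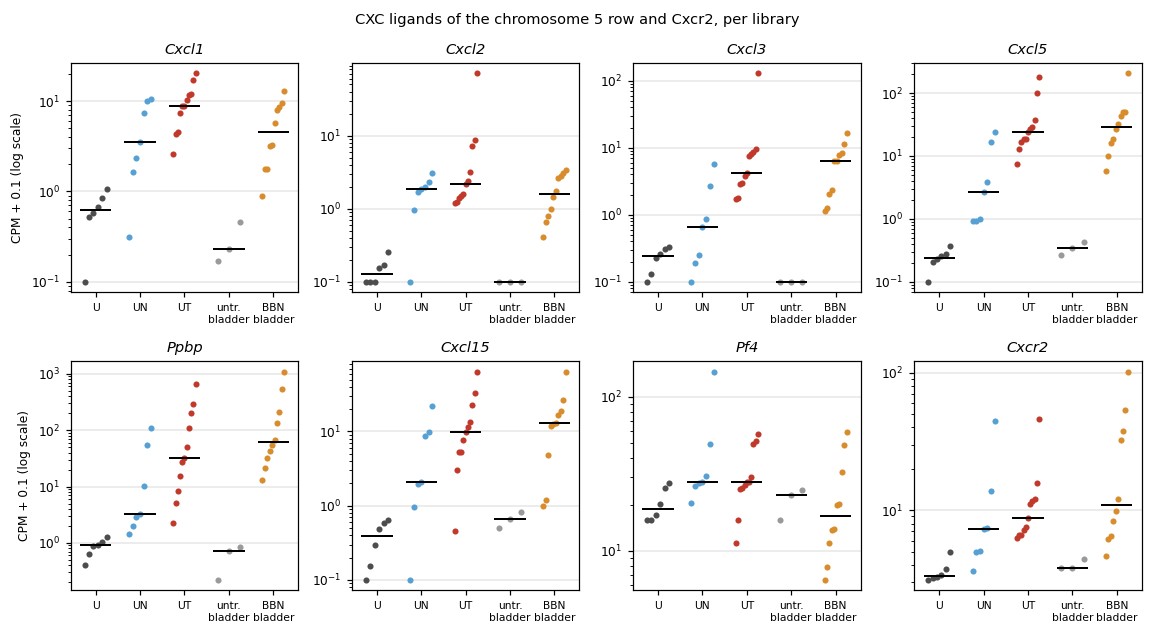
CPM + 0.1 on a log scale (vertical) of the 7 CXC ligands of the chromosome 5 row and Cxcr2 in U (n = 6), UN (n = 7), UT (n = 11), untreated bladder (n = 3) and BBN bladder (n = 10); points are libraries and bars are medians. Cxcl5 and Ppbp do not overlap between treated and untreated libraries of a tissue, Cxcl2 and Cxcl3 have a single UT library, UT 2, far above the rest, and Pf4 overlaps between all groups.

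The Cxcr3 ligands, induced by interferon, moved apart from each other. Cxcl9 had its highest median in untreated ureter, with 13.04 to 24.5 CPM in U (median 15.7), 0.601 to 29.5 CPM in UN (median 3.71) and 0.483 to 28.1 CPM in UT (median 3.41), and it was 0.0272, 0.536 and 1.29 CPM in untreated bladder and 0.162 to 6.88 CPM in BBN bladder (median 1.39). Below the lowest U library lay 5 of 7 UN and 10 of 11 UT libraries. It fell in UT against U (-1.61 ± 0.75, adjusted p = 0.0827) and was not called in UN (-0.64 ± 0.85, adjusted p = 0.646). The UT call was the least stable of the 3 that fell, and held in 11 of 24 fits that left out a library each, with a value of -2.27 without UT 9.

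Cxcl10 ranged from 1.02 to 3.7 CPM in U (median 1.89), from 1.46 to 21.8 CPM in UN (median 3.21) and from 2.53 to 148 CPM in UT (median 10.4), with 1.05, 0.533 and 3.19 CPM in untreated and 1.34 to 21.2 CPM in BBN bladder (median 8.58). Cxcl11 ranged from 0.535 to 1.31 CPM in U (median 0.933), from 0.366 to 8.56 CPM in UN (median 1.69) and from 0.397 to 59.0 CPM in UT (median 2.84), with 0.0697, 0.2 and 0.421 CPM in untreated and 0.551 to 16.9 CPM in BBN bladder (median 3.1). UT 2 was the highest UT library for both. Cxcl10 rose in UT (3.21 ± 0.89, adjusted p = 0.00589) and bladder (2.80 ± 0.85, adjusted p = 0.0516), and Cxcl11 in UT (3.04 ± 0.96, adjusted p = 0.0137) and bladder (5.07 ± 1.41, adjusted p = 0.0341). Without UT 2 the UT values were 2.03 for Cxcl10 and 1.84 for Cxcl11, both still called. The UT call of Cxcl10 held in every alternative run. That of Cxcl11 held in every fit without a library, but not in all the other alternatives. The bladder call of Cxcl10 was lost without untreated bladder 1 or 2 and its value was 3.80 without untreated bladder 3, while that of Cxcl11 was lost without any 1 of the 3 untreated bladders, although its value was 5.76 without untreated bladder 3. Neither passed the test in UN, and the receptor Cxcr3 passed in no comparison. Of the bases in Cxcl11 exons, 41.7% are shared with Gm2673 on the other strand, and 5.91% of those in Cxcl10 with Art3, so reads there cannot be assigned in these unstranded libraries. The T and NK cell markers, whose cells carry Cxcr3, rose in 0 of 11 tested in UN (2 with an unadjusted p under 0.05, edgeR) and in 7 of 11 in UT, and in bladder in 0 of 10 (1 with an unadjusted p under 0.05).
The 180 bases before the RefSeq start of Cxcl10 are shown because, unlike the windows above, they hold 2 separate κB matches (chr5:92348890-92349069, minus strand, read 5′ to 3′, capitals as above).
Cxcl10: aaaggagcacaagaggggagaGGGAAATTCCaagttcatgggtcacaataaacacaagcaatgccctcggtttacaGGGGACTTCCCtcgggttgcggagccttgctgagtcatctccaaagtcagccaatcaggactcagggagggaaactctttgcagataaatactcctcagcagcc

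Among the other CXC, XC and CX3C genes, 7 of 12 rose in UN, 8 of 12 in UT and 2 of 11 in the BBN bladders. Over all genes tested, 12.5%, 18.7% and 7.61% rose. Cxcl13, the ligand of Cxcr5 that draws B cells into follicles, ranged from 3.31 to 25.2 CPM in U (median 4.34), from 14.4 to 637 CPM in UN (median 260.5) and from 1.94 to 563 CPM in UT (median 129). In the bladders it was 2.86, 3.73 and 12.9 CPM untreated and 5.48 to 166 CPM after BBN (median 65.9). It was thus higher in 6 of 7 UN, 9 of 11 UT and 8 of 10 BBN bladder libraries than in any untreated library of that tissue. Log2 fold changes were 4.997 ± 1.06 (adjusted p = 0.00421), 4.54 ± 1.01 (adjusted p = 0.00119) and 3.78 ± 1.08 (adjusted p = 0.0395), and without the highest U library, U 2R, they were 5.85 in UN and 5.39 in UT. The bladder call was lost without untreated bladder 1 or 2, and the value was 4.73 without untreated bladder 3.

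Cxcr5, the receptor of Cxcl13 on B cells, ranged from 0.255 to 1.86 CPM in U (median 0.594), from 0.898 to 14.3 CPM in UN (median 1.82) and from 0.318 to 38.0 CPM in UT (median 9.59). It was 0.488, 0.866 and 1.08 CPM in untreated and 0.793 to 7.42 CPM in BBN bladder (median 2.48). The ureter groups overlapped, with 3 of 7 UN and 7 of 11 UT libraries above the highest U library. It rose in UN (2.41 ± 0.92, adjusted p = 0.0857) and UT (3.40 ± 0.92, adjusted p = 0.005), and not in bladder (2.29 ± 0.92, adjusted p = 0.131). The UN call held in 16 of 24 fits that left out a library each. Of its exon bases, 3.3% are shared with Bcl9l. B and plasma cell markers summed to 12.7 to 73.0 CPM in U, 185 to 971 CPM in UN, 36.9 to 2386 CPM in UT, 9.83 to 39.3 CPM in untreated bladder and 15.4 to 1317 CPM in BBN bladder, and 5 of 6 tested rose in UN, 6 of 6 in UT and 2 of 6 in bladder. Their part in the Cxcl13 and Cxcr5 values was not tested.

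Cxcl16, a transmembrane chemokine that binds Cxcr6 and scavenges oxidized lipid, was separated between treated and untreated tissue throughout. It ranged from 13.7 to 20.1 CPM in U (median 15.9), from 35.6 to 237 CPM in UN (median 64.4) and from 66.5 to 323 CPM in UT (median 139.6), and it was 28.4, 31.8 and 32.3 CPM in untreated and 62.0 to 229.8 CPM in BBN bladder (median 147). No treated library overlapped the untreated ones of its tissue. It rose in UN (2.42 ± 0.40, adjusted p = 0.000856), UT (3.18 ± 0.40, adjusted p = 1.25e-05) and bladder (2.59 ± 0.40, adjusted p = 0.000797), and these calls held in every alternative run. Zmynd15 shares 18.3% of its exon bases from the other strand. The receptor Cxcr6 was not called in any comparison and had medians of 8.23 CPM in U, 5.85 in UN, 9.64 in UT and 3.87 in BBN bladder.

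Cxcl17, a chemokine of mucosal surfaces, was low throughout, with 0.278 to 0.829 CPM in U (median 0.465), 0.0672 to 2.07 CPM in UN (median 0.402) and 0.288 to 9.81 CPM in UT (median 1.98). It was 0.488, 0.2 and 0.361 CPM in untreated and 0.543 to 9.15 CPM in BBN bladder (median 1.11). UT lay above the highest U library in 8 of 11 libraries, and UN in 1 of 7. It rose in UT against U (2.203 ± 0.70, adjusted p = 0.0135) and was not called in UN (0.27 ± 0.73, adjusted p = 0.834) or bladder (3.09 ± 1.20, adjusted p = 0.122). This UT call held in every fit without a library, but not in all the other alternatives. Cxcl14, made by epithelium, rose in UN (2.39) and UT (2.77), as did Cx3cl1, the membrane-bound fractalkine (1.45 and 2.11), its receptor Cx3cr1 (1.43 and 2.06) and Cxcr4 (2.04 and 2.98), the receptor of Cxcl12. The call of Cx3cl1 in UN held in 16 of 24 fits without a library and was lost without UN 3, UN 7 (0.63, adjusted p = 0.333) or any 1 of the 6 U libraries, and the UN value of Cxcr4 was 1.42 without UN 3. Cxcl12 itself, a stromal ligand at medians of 184 CPM in U, 346 in UN and 166 in UT, was not called, nor were Xcl1 and Xcr1.

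Of the inflammatory CC ligands and their receptors, 15 were tested in the ureters, where 9 rose in UN and 10 in UT. Of all genes, 12.5% and 18.7% rose there. In bladder 2 of 16 rose, beside 7.61% of all genes. The median log2 fold change was 2.95 in UN, 2.11 in UT and 2.12 in bladder, where all 16 were above 0. Ccl2, Ccl7, Ccl11, Ccl12 and Ccl8 lie together on chromosome 11, from 82035571 to 82116799. Ccl8 ranged from 12.9 to 71.3 CPM in U (median 54.9), from 65.6 to 3212 CPM in UN (median 296) and from 20.8 to 895 CPM in UT (median 363). It was 61.8, 96.3 and 104 CPM in untreated and 16.9 to 1208 CPM in BBN bladder (median 148), with the bladder groups overlapping. Ccl8 rose in UN (4.03 ± 0.91, adjusted p = 0.00647) and UT (2.79 ± 0.82, adjusted p = 0.00868), and not in bladder (2.35 ± 1.25, adjusted p = 0.216). Without UN 2, the highest UN library, its UN value was 2.34 (adjusted p = 0.0175).

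Ccl7 and Ccl12, neighbours of Ccl8 on chromosome 11 that draw monocytes through Ccr2, behaved much the same in the ureter. Ccl7 ranged from 0.696 to 3.19 CPM in U (median 1.49), from 3.19 to 93.9 CPM in UN (median 10.95) and from 2.38 to 66.8 CPM in UT (median 17.1). It was 4.18, 2.4 and 5.96 CPM in untreated and 1.69 to 30.2 CPM in BBN bladder (median 5.8). Ccl12 ranged from 0.743 to 3.85 CPM in U (median 2.14), from 8.94 to 115 CPM in UN (median 12.5) and from 5.08 to 62.0 CPM in UT (median 21.2), and it was 4.25, 3.06 and 8.3 CPM in untreated and 0.708 to 68.8 CPM in BBN bladder (median 11.4). All UN and UT libraries lay above U for Ccl12, and 7 of 7 UN and 10 of 11 UT for Ccl7, while the bladder groups overlapped for both. Log2 fold changes were 3.85 ± 0.87 (adjusted p = 0.0066) and 3.38 ± 0.82 (adjusted p = 0.00233) for Ccl7, and 3.81 ± 0.79 (adjusted p = 0.00359) and 3.16 ± 0.74 (adjusted p = 0.00168) for Ccl12, in UN and UT. Ccl2, the best known Ccr2 ligand, rose by 2.99 in UN and 3.12 in UT on the log2 scale, Ccl6 by 3.22 and 2.11, and Ccl9 by 2.95 and 1.80.

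Ccl3, a ligand of Ccr1, ranged from 0.0637 to 0.385 CPM in U (median 0.223), from 0.821 to 7.68 CPM in UN (median 1.65) and from 0.519 to 37.6 CPM in UT (median 2.71). It was 0.279, 0.466 and 0.421 CPM in untreated and 0.36 to 2.53 CPM in BBN bladder (median 1.45). Neither ureter group overlapped U, and UT 2 was the highest UT library. The log2 fold change was 3.57 ± 0.999 (adjusted p = 0.021) in UN and 4.69 ± 1.004 (adjusted p = 0.000868) in UT, or 3.79 in UT without UT 2. Its neighbour Ccl4 rose as well (2.65 in UN, lost without UN 2 or any 1 of U 1R, U 1L, U 2R and U 2L, and 3.07 in UT, or 2.03 without UT 2).

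Ccr1, the receptor of Ccl3, Ccl6, Ccl7 and Ccl9 on myeloid cells, ranged from 3.84 to 8.62 CPM in U (median 4.45), from 7.06 to 85.1 CPM in UN (median 25.2) and from 22.7 to 107 CPM in UT (median 39.7). It was 4.74, 4.33 and 4.27 CPM in untreated and 3.95 to 44.4 CPM in BBN bladder (median 13.6). Only 1 UN and 1 BBN bladder library fell within or below the untreated range of its tissue. Ccr1 rose in UN (2.99 ± 0.49, adjusted p = 0.000844), UT (3.01 ± 0.48, adjusted p = 8.3e-05) and bladder (2.12 ± 0.49, adjusted p = 0.0121) and stayed called in every alternative run. Ccr2 and Ccr3 passed in no comparison.

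Of the 11 inflammatory CC ligands, 3 were not called in UN or UT against U, namely Ccl5, Ccl24 and Ccl11. Log2 fold changes were 1.22 ± 0.70 and 0.59 ± 0.63 for Ccl5, made by T and NK cells among others, and 1.66 ± 0.69 and 0.22 ± 0.61 for Ccl24, which draws eosinophils through Ccr3. Ccl11 ranged from 77.4 to 116 CPM in U (median 92.3), from 30.2 to 149 CPM in UN (median 108) and from 1.99 to 145 CPM in UT (median 102), with log2 fold changes of 0.07 ± 0.57 and -0.45 ± 0.51. In bladder it was 8.64, 23.7 and 9.57 CPM untreated and 10.7 to 167 CPM after BBN (median 44.7). Of the BBN bladders, 7 of 10 lay above the highest untreated bladder, and Ccl11 rose there (2.40 ± 0.82, adjusted p = 0.0836), a call that held in 7 of 13 fits that left out a library each, and in none without an untreated bladder. Macrophage and monocyte markers summed to 709 to 1250 CPM in U, 417 to 8830 CPM in UN, 1111 to 5303 CPM in UT, 996 to 1123 CPM in untreated bladder and 422 to 2192 CPM in BBN bladder, and 7 of 12 rose in UN, 7 in UT and 2 in bladder. Their part in the CC ligand values was not tested. Without UN 2, the UN values of Ccl2, Ccl3, Ccl4, Ccl6, Ccl7, Ccl8, Ccl9, Ccl12 and Pf4 each fell by more than 1.5 times, to log2 fold changes of 0.55 (Pf4) to 2.76 (Ccl3).

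Among CC genes of lymphoid, mucosal and T cell traffic, 10 of 16 tested rose in UN, 11 rose and 2 fell in UT, and 3 of 15 rose in bladder. Over all genes, 12.5% rose in UN, 18.7% rose and 12.3% fell in UT, and 7.61% rose in bladder. In both ureter comparisons the genes that rose include Ccl21a, Ccl21b and Ccl21c, gene copies that may count 1 signal more than once. Ccl20, which draws dendritic cells, B cells and Th17 cells through Ccr6, was listed at 0 in all 6 U libraries and all 3 untreated bladders. It ranged from 0 to 1.61 CPM in UN (median 0.241), from 0.294 to 3.79 CPM in UT (median 1.26) and from 0 to 4.07 CPM in BBN bladder (median 1.14). It was present in 5 of 7 UN, 11 of 11 UT and 9 of 10 BBN bladder libraries. Against the floor of 3 counts over the untreated group, it was at least 16.3-fold higher in UN, 44.4-fold in UT and 24.5-fold in bladder (adjusted p = 0.00718, 0.000165 and 0.0149). Without UN 7, its highest UN library, the bound in UN was 8.77-fold.

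Ccr6, the receptor of Ccl20, ranged from 0 to 0.574 CPM in U (median 0.1), from 0.457 to 4.57 CPM in UN (median 1.05) and from 0.144 to 12.4 CPM in UT (median 4.67), and it was 0.0697, 0.333 and 0.0602 CPM in untreated and 0 to 6.75 CPM in BBN bladder (median 2.73). Above the highest U library, U 1L, lay 5 of 7 UN and 9 of 11 UT libraries. Ligand and receptor both rose in all 3 comparisons, Ccr6 by 3.02 ± 0.92 (adjusted p = 0.0321), 4.44 ± 0.92 (adjusted p = 0.000664) and 4.47 ± 1.55 (adjusted p = 0.0887) on the log2 scale. Without U 1L the Ccr6 values were 3.87 in UN and 5.29 in UT. The bladder call of Ccr6 held in 6 of 13 fits that left out a library each (4.05 to 5.52, the latter without untreated bladder 2), and it was lost under limma-trend and with the looser filter on counts. The promoter of each is shown because both members of this pair held a κB match in the 120 bases before a RefSeq start, at -80 to -71 in Ccl20 and at -81 to -71 in the second of 2 Ccr6 starts (plus strand, capitals as above). The 120 bases before the first Ccr6 start held no match and are not shown.
Ccl20 (chr1:83116646-83116765): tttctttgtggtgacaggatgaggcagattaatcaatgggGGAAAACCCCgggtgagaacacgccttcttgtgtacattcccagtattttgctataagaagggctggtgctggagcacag
Ccr6 (chr17:8242406-8242525): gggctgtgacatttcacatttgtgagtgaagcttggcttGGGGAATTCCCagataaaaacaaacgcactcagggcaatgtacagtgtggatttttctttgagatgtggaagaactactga

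Ccl17, which draws T cells through Ccr4, ranged from 0 to 0.319 CPM in U (median 0.129), from 1.46 to 26.3 CPM in UN (median 2.74) and from 1.03 to 17.4 CPM in UT (median 3.53). It was 1.25, 0.932 and 1.38 CPM in untreated and 1.53 to 30.8 CPM in BBN bladder (median 5.93). No BBN-treated library overlapped the untreated ones of its tissue. Ccl17 rose in UN (5.14 ± 0.88, adjusted p = 0.00103; 4.04 without UN 3), UT (4.71 ± 0.85, adjusted p = 0.000227) and bladder (3.62 ± 1.10, adjusted p = 0.053; lost without any 1 of the untreated bladders). Ccl22, which also binds Ccr4, rose in UN (2.47, lost without UN 3, U 1R or U 2L) and UT (3.50), and Ccr4 itself was not called.

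Ccr8, a receptor found on regulatory and other T cells, ranged from 0 to 0.195 CPM in U (median 0.0385), from 0 to 3.94 CPM in UN (median 0.482) and from 0 to 5.66 CPM in UT (median 2.05). It was 0.0697, 0.0666 and 0.241 CPM in untreated and 0.0662 to 3.11 CPM in BBN bladder (median 1.14). UN lay above the highest U library in 4 of 7 libraries and UT in 10 of 11. It rose in UN (3.78 ± 1.04, adjusted p = 0.0198; 2.82 without UN 3) and UT (4.53 ± 1.02, adjusted p = 0.00131), and not in bladder (3.49 ± 1.37, adjusted p = 0.124). Without U 3L the values were 4.46 in UN and 5.22 in UT. Ccr7, which brings dendritic cells and naive T cells to lymphoid tissue, rose in UN (3.08, or 2.26 without UN 3) and UT (4.26), from a median of 1.31 CPM in U to 7.48 CPM in UN and 36.4 CPM in UT. Its ligands Ccl21a and Ccl19 rose in UT (2.23 and 3.25, the latter 2.66 without UT 6). Both UT calls held in every fit without a library. They were lost under limma-trend, in the limma-voom fit that allows for shared mice, and when each mouse's libraries were summed. Over all alternatives the lowest UT values were 1.21 for Ccl21a and 1.33 for Ccl19. In UN Ccl21a rose (2.45, held in 17 of 24 fits without a library) while Ccl19 did not pass (2.36 ± 1.05, adjusted p = 0.136). Ccl21b and Ccl21c had nearly equal counts in every library, at a ratio of 0.977 to 1, so their reads were shared between copies and their separate levels are uncertain. Lymphoid stroma markers summed to 1.31 to 2.66 CPM in U, 3.66 to 102 CPM in UN and 1.15 to 214 CPM in UT, and 2 of 3 tested rose in UN and 3 of 3 in UT. Of 7 dendritic cell markers 3 rose in UN (median log2 fold change 1.34), and 3 rose and 1 fell in UT (0.55). The part of these cells in the chemokine values was not tested.

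**Figure D4:**
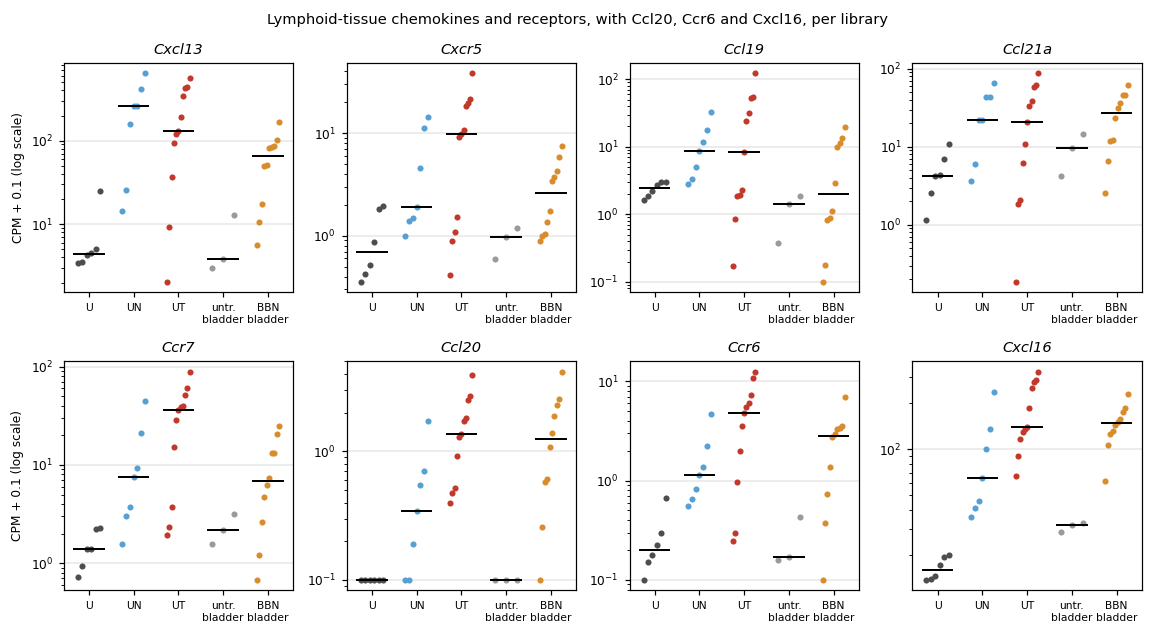
CPM + 0.1 on a log scale (vertical) of Cxcl13, Cxcr5, Ccl19, Ccl21a, Ccr7, Ccl20, Ccr6 and Cxcl16 in U (n = 6), UN (n = 7), UT (n = 11), untreated bladder (n = 3) and BBN bladder (n = 10); points are libraries and bars are medians. Ccl20 sits at 0 in every untreated library, Cxcl16 does not overlap between treated and untreated libraries of a tissue, and Ccl19, Ccl21a and Ccr7 each have UT libraries within or below the range of U.

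Ccl27a and its receptor Ccr10, a pair known from skin and mucosal T and plasma cell homing, moved the other way. Ccl27a ranged from 1.36 to 2.09 CPM in U (median 1.52), from 0.362 to 2.32 CPM in UN (median 1.04) and from 0 to 1.6 CPM in UT (median 0.444). It was 0.566, 0.787 and 0.577 CPM in untreated and 0.216 to 4.47 CPM in BBN bladder (median 0.907). Ccr10 ranged from 0.417 to 1.04 CPM in U (median 0.836), from 0.402 to 1.28 CPM in UN (median 0.672) and from 0 to 1.1 CPM in UT (median 0.237), with 0.279, 0.333 and 0.241 CPM in untreated and 0 to 0.562 CPM in BBN bladder (median 0.111). Below the lowest U library lay 10 of 11 UT libraries for Ccl27a and 8 of 11 for Ccr10. Both fell in UT against U (Ccl27a -1.92 ± 0.57, adjusted p = 0.00935; Ccr10 -1.54 ± 0.54, adjusted p = 0.0231), and neither was called in UN. Ccl27a has a near copy, Ccl27b, and shares 8 exon bases with Il11ra1, so its counts may be split.

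The cancerous ureter was then compared with the noncancerous one, to see what went with cancer beyond BBN exposure. In UT against UN, 3 of 55 chemokine genes rose (Cxcl3, Cxcl5 and Cxcl17) and 2 fell (Ccl27a and Ccr10), against 1.32% and 4.2% of all genes, and the median log2 fold change was -0.03, near the -0.02 of all genes. Cxcl3 was higher by 3.35 ± 1.02 (adjusted p = 0.0790), Cxcl5 by 2.49 ± 0.72 (adjusted p = 0.0763) and Cxcl17 by 1.93 ± 0.65 (adjusted p = 0.0928), whereas Ccl27a was at -1.67 ± 0.57 (adjusted p = 0.0954) and Ccr10 at -1.59 ± 0.54 (adjusted p = 0.0926). UT and UN overlapped for all 5, with 5 of 11 UT libraries above the highest UN library for Cxcl3 and Cxcl5, and 8 of 11 below the lowest UN library for Ccr10. Without UT 2, the values were 1.61 (adjusted p = 0.186) for Cxcl3 and 1.90 (adjusted p = 0.123) for Cxcl5, and without UN 3 they were 4.41 for Cxcl3 and 2.69 for Cxcl17. The 7 CXC ligands of the chromosome 5 row had a median of 2.15, that of inflammatory CC ligands -0.64, and in the latter 0 of 11 were called by edgeR and 2 had an unadjusted p under 0.05. Without UN 2 the median of these 11 was 0.45, with 7 above 0 in place of 3, and with the mouse as a block it was -0.10, so the sign of their median rests on UN 2. Without UN 6, 0 chemokine genes were called in either direction in edgeR, and 15 had an unadjusted p under 0.05. In that fit 5 of all 15587 genes tested rose and 1 fell, and 2764 had an unadjusted p under 0.05. Markers of other cells and tissues moved in the same comparison. Of 10 neutrophil markers 1 rose and 3 had an unadjusted p under 0.05, with a median log2 fold change of -0.13, while their summed level had a median of 117 CPM in UN and 789 CPM in UT. Of 4 kidney tubule markers 1 rose (median log2 fold change 4.50). Of 7 smooth muscle markers, 4 fell in UT against UN (median log2 fold change -1.28), with summed levels of 330 to 6709 CPM in UN and 373 to 2569 CPM in UT. None of the 5 adipocyte markers was called by edgeR, with a median of -1.70 and 2 at an unadjusted p under 0.05. Their part in the chemokine values was not tested.

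Within the 7 mice with both sides, Cxcl3 was higher on the cancer side in 6 (not mouse 3), Cxcl5 in 6 (not mouse 7) and Cxcl17 in 6 (not mouse 9). Ccr10 was lower in 6 (not mouse 9) and Ccl27a in 5. Among genes not called, Cxcl1, Cxcl10, Cxcl14, Cx3cl1, Cxcr2, Cxcr6, Ccl22, Ccr1 and Ccr6 were also higher in 6. Xcr1 and Ccl27b, not called either, were lower in 6. The largest gap was that of mouse 2, where Cxcl5 was 3.82 CPM in UN and 179.8 CPM in UT, and Cxcl3 was 0.777 and 128 CPM. In mouse 9 Cxcl5 was 0.898 and 7.26 CPM. Cx3cr1 was higher on the cancer side in all 7 mice, from 1.85 to 8.95 CPM in UN and 3.9 to 15.6 CPM in UT, without being called (0.64 ± 0.37, adjusted p = 0.27). With the mouse as a block, 0 of 50 chemokine genes passed in edgeR, and 7 had an unadjusted p under 0.05. In that fit 0 of all 14869 genes tested passed in either direction, and 623 had an unadjusted p under 0.05. There Cxcl5 was at 2.70 ± 0.70 and Cxcl3 at 3.49 ± 1.003, both with an adjusted p of 0.799. Under DESeq2, with all libraries and no block, 5 rose and 3 fell, and under limma-trend 1 rose and 0 fell. None of the 5 calls held in every fit that left out a library.

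**Figure D5:**
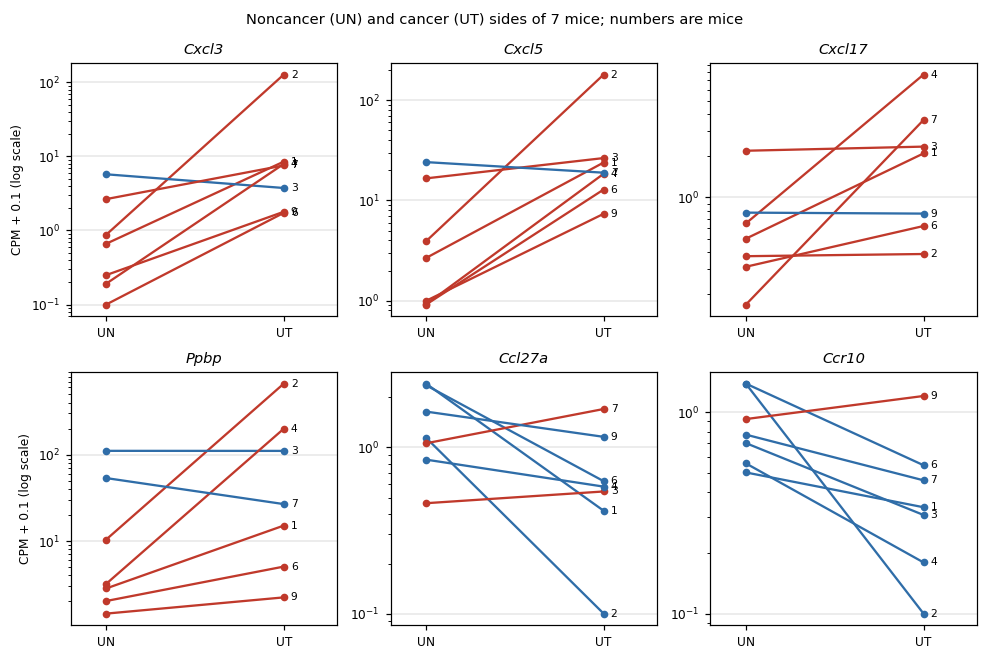
CPM + 0.1 on a log scale (vertical) on the noncancerous (UN) and cancerous (UT) side of the 7 mice with both libraries, for Cxcl3, Cxcl5, Cxcl17, Ppbp, Ccl27a and Ccr10; lines join the sides of a mouse, red where UT is higher and blue where it is lower. Cxcl3, Cxcl5 and Cxcl17 are higher in UT in 6 of 7 mice each, and Ccr10 is lower in 6.

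In the bladder, 15 of 54 chemokine genes tested rose with BBN and 0 fell (27.8%, against 7.61% and 5.74% of all 18050 genes tested). These were Cxcl1, Cxcl2, Cxcl3, Cxcl5, Ppbp, Cxcl15, Cxcl10, Cxcl11, Cxcl13, Cxcl16, Ccl11, Ccr1, Ccl17, Ccl20 and Ccr6. The median log2 fold change of the 54 was 2.36, that of all genes 0.25, and 28 had an unadjusted p under 0.05, none of them lower after BBN. The first 6 of these, with Cxcl16, Ccr1 and Ccl20, stayed called in every alternative run. RNA was degraded in the BBN bladders of mice 1, 3 and 4, with an RNA integrity number under 5 in the quality table of the study, and without these 3 libraries 18 of 51 rose and 0 fell, with a median of 1.79. The bladder library of mouse 6 carries a T in its sample name, the letter of the cancerous ureters, where the other BBN bladders carry an N, and without it 13 of 53 rose, the calls of Ccl11 and Ccr6 being lost. DESeq2 called 36 higher and 0 lower, and 9 to 23 were called when a library was left out, with 9 when untreated bladder 1 or 2 was absent and 23 without BBN bladder 10. Of the 34 genes that rose in UN, 12 (35.3%) also rose in bladder, which is 80.0% of the 15 bladder genes, and the other 3 of those were Ccl11, Cxcl10 and Cxcl11. Over all genes, 780 of the 1950 that rose in UN also rose in bladder (40.0%, and 56.8% of the 1373 bladder genes). Urothelial markers summed to 23839 to 25148 CPM in untreated and 1774 to 12670 CPM in BBN bladder, and 6 of these 12 markers fell; their part in the chemokine values was not tested.

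The test of whether the BBN effect differed between ureter (UN against U) and bladder called 0 of 58 chemokine genes in either direction in edgeR, against 2.21% of all 18959 genes, and 5 had an unadjusted p under 0.05. Cxcl14 came closest, at 2.94 ± 0.89 (adjusted p = 0.1002), since it rose in UN and stood at -0.50 ± 0.67 in bladder. Cxcl11 (-3.45), Cxcl17 (-2.75) and Ccl11 (-2.29) each had the larger difference in bladder. The last was Cxcl3, for which no size of the difference is given, since all 3 untreated bladders were at 0. DESeq2 called 2, Cxcl14 and Cxcl3. Calls made in the ureter and not in the bladder, such as those of Ccl6, Ccl7 and Ccl8, are therefore not shown to differ between the tissues.

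Untreated ureter and untreated bladder differed in 3 chemokine genes. Cxcl9 (5.10 ± 1.53, adjusted p = 0.0231) and Ccl11 (3.05 ± 0.89, adjusted p = 0.0195) were higher in U, and Cxcl14 was lower (-2.24 ± 0.73, adjusted p = 0.0359), which is 3.45% and 1.72% of 58 tested, against 6.62% and 8.61% of all genes. For all 3, none of the 6 U libraries overlapped the 3 bladders. All 3 calls were lost without untreated bladder 1, and those of Ccl11 and Cxcl14 also without untreated bladder 3. Cxcl9 was at 6.26 without untreated bladder 3, and Ccl11 at 3.65 without untreated bladder 2. Tissue markers differed in the same comparison, with 9 of 12 urothelial (median log2 fold change -2.49) and 4 of 7 smooth muscle markers (-2.32) lower in U and 5 of 5 adipocyte markers higher (6.52), and their part in the chemokine values was not tested. With both ureters of a mouse summed and the mouse as a block, 13 were higher and 3 lower of 46 tested, beside 16.1% and 14.0% of the 15545 genes tested in that fit.

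The rest of the chemokine pathway was 42 tested genes for atypical receptors, ligand processing and signalling. A smaller share of them than of the ligands rose in BBN-treated against untreated tissue. edgeR called 0 in UT against UN, where 10 had an unadjusted p under 0.05. The median log2 fold change there was 0.26, and that of the ligands -0.04. In UN against U 8 rose and 1 fell (19.05% and 2.38%, against 12.5% and 1.21% of all genes). In UT against U 14 rose and 1 fell (33.3% and 2.38%, against 18.7% and 12.3%), and in the BBN bladders 2 rose and 5 fell (4.76% and 11.9%, against 7.61% and 5.74%). Rgs1, which damps chemokine receptor signals in lymphocytes, rose by 3.54 ± 0.72 in UN, 4.42 ± 0.72 in UT and 3.39 ± 0.66 in bladder. Nfkbia, the inhibitor of NF-κB that NF-κB itself induces, rose by 1.18 in UN and 1.52 in UT. Ackr4, an atypical receptor that clears Ccl19, Ccl21 and Ccl25, fell in both ureter groups (-1.43 ± 0.49 and -2.002 ± 0.43), from a median of 11.5 CPM in U to 4.26 CPM in UN and 2.57 CPM in UT. Ackr2, which clears inflammatory CC ligands, fell in bladder (-1.53 ± 0.54, adjusted p = 0.0939), and Ccrl2, which presents chemerin, rose in UT (1.37) and bladder (1.38).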

How the data were processed

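RNA of 37 libraries was made into unstranded libraries (SMARTer HT and Nextera XT) and sequenced. The submitters' processing notes name TopHat2 2.1.1, Cuffdiff 2.2.1 and GRCm38/mm10, and the authors deposited unnormalized estimated counts by gene symbol, of which 21.1% of nonzero values were fractional. All 37 columns were matched to samples by name. CPM was taken over each library's total. Counts were rounded to whole numbers and tested with edgeR 4.0.16 in R 4.3.3 (filterByExpr, TMM, quasi-likelihood F test, adjusted p over all genes tested), in 1 fit of 24 ureter libraries, 1 of 13 bladder libraries and, for the interaction and the untreated tissues, 1 of all 37. The procedure was tested on simulated data. DESeq2 1.42.0, limma 3.58.1, RLE scaling, a looser filter, sums per mouse, a mouse block and leaving out libraries were alternatives. The study's thresholds were used (FDR under 0.1, fold of at least 2). Libraries of a mouse were taken as independent, and p-values measure the spread between libraries. Numbers shared by UT and UN mark a common mouse, and the deviations of such libraries from the group means correlated with a median of 0.025 over 7 pairs (-0.148 to 0.620), against -0.0068 over different mice. For both ureters of an untreated mouse it was -0.225 to 0.0710 (3 pairs), against a median of -0.212 over 12 pairs of different mice, and limma estimated a correlation within mice of 0.150.

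Per-kilobase levels used GENCODE vM21 exons, which hold 59 of the 60 genes. Promoters are from RefSeq on GRCm38.p6, 44 of 60 genes having a window. Library values were given for 23 genes: those called in UT against UN and up to 3 per role and comparison with the largest called change; the others named were called in a comparison or had a group mean of at least 10 CPM, and a few more were named after their values were seen. The chemokine genes, roles, pathway and marker lists were chosen with earlier results of these data known. No pair of libraries in a group agreed within sampling noise (smallest chi-square over its degrees of freedom 7.37). The values of 1 gene are not reported here, though it stays in the counts.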

Additional observations from a re-analysis of the deposited data

Results flagged for a closer look

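In 7 of 68 groups of 4 to 10 libraries checked on log2(CPM + 4), over the genes given with library values, the highest library stood apart from the nearest by Dixon's criterion at 95%. Chance alone sets apart about 1 group in 20. Cxcl13 was 25.2 CPM in U 2R, where the next U library had 4.96 CPM. Ccl17 was 26.3 CPM in UN 3 (next 5.13 CPM) and Cxcl17 was 2.07 CPM in the same library (next 0.674 CPM). Cxcl17 was also 9.15 CPM in BBN bladder 1 (next 3.14 CPM). Ccl20 was 1.61 CPM in UN 7 (next 0.601 CPM). In untreated ureter, Ccl27a was 2.09 CPM in U 3L (next 1.55 CPM) and Ccr6 was 0.574 CPM in U 1L (next 0.195 CPM).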

How the results depend on the processing

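No called gene changed direction in any alternative. In UT against UN, 3 chemokine genes rose and 2 fell, whereas 5 rose under DESeq2 or without UT 9, and 1 rose and 0 fell under limma-trend. It was 0 and 0 in limma-voom with a random effect of mouse, with UT and UN libraries alone, with libraries summed per mouse, without mice 8, 9 and 10 (chosen after seeing the data) and with the replicate block (the mouse). Over all genes, these fits in turn called 2 and 0, 0 and 0, 5 and 8, 17 and 9, and 0 and 0 higher and lower. With a filter of at least 1 count, 0 chemokine genes fell. Leaving out a library gave 0 to 7 higher and 0 to 5 lower. In UN against U, 34 rose, 10 rose and 1 fell in limma-voom, 4 rose with libraries summed per mouse, and 24 to 36 without a library. In UT against U, 3 fell and 1 with libraries summed, with 34 to 38 higher and 2 to 4 lower without a library. The 15 bladder genes were 36 under DESeq2, 30 without mice 8, 9 and 10, and 9 to 23 without a library. Between U and untreated bladder, 2 were higher and 1 lower. With the replicate block 13 were higher and 3 lower, 2 were lower under DESeq2 or without the 3 bladders of low RNA quality, and without a library 0 to 2 were higher and 0 to 1 lower. For the interaction, with 0 called, DESeq2 called 1 in each direction and the fit without the bladder of mouse 6 called 1 (Cxcl14). The causes were not tested.

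Called in every fit without a library were 23 of 34 genes in UN against U, 36 of 41 in UT against U, 9 of 15 in bladder and 0 of 5 in UT against UN. Over all genes, DESeq2 gave 411 higher and 980 lower in UT against UN, against 206 and 658, and 4646 higher in bladder, against 1373; UN against U gave 147 higher and 10 lower with libraries summed, against 1950 and 189. Genes under about 1 CPM, such as Ccl20, Ccr8, Ccr10 and Cxcl2 in U, rest on a few counts, and only 3 mice gave the untreated tissue.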
